A study of Mus musculus with 6 samples.

Results

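The Slit ligands Slit1, Slit2 and Slit3, the Robo receptors Robo1, Robo2, Robo3 and Robo4, and the adaptor genes Srgap1 and Srgap2 were examined in cultured MCEC cells with and without knockdown of Fat4. These 9 genes, of 78317 in the table, were chosen by gene symbol. Where a symbol sat on several rows, the row of highest summed count was to be used, but each symbol had 1 row, so no count chose between rows. The list was drawn up with results of the same comparison in view, so its counts are given as a description and support nothing further.

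MCEC is a mouse line, immortalised and grown in culture, whose label is cardiac endothelial cell. The control group was the wild-type line (3 libraries), and the knockdown group was the line carrying ShFat4, a short hairpin RNA against the atypical cadherin Fat4 (3 libraries). No other allele or agent is named for either group, and the sources used here do not state a non-targeting hairpin, the number of clones or separate cultures. The p-values measure only how much these libraries vary, which may be technical. Total counts ran from 10305810 to 11870091 a library, and levels are given as CPM, counts scaled to a common library total. The limit that a count of 0 leaves, 3 counts, equals 0.253 to 0.291 CPM and covers counting error only.

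Slit proteins are large secreted proteins that bind the immunoglobulin-like ectodomain of Robo receptors, with heparan sulfate as a co-factor. They are best known for repelling growing axons at the midline, and in vessels they take part in endothelial migration and barrier control. Robo receptors have no enzyme activity of their own and act through adaptors such as the srGAP proteins and Nck. Robo4 is known as a receptor largely restricted to endothelium, and it does not bind Slits in the way the other receptors do.

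In these cells the ligand genes Slit3 and Slit2 and the adaptor gene Srgap2 were expressed, and the receptor genes were at or near 0. In the knockdown Slit3 fell by 39.8% and Slit2 fell by 19.8% in the fit. Srgap2 did not pass the test. Slit1, Robo2 and Robo4 had no count in any library. Robo1, Robo3 and Srgap1 had 6, 21 and 4 counts over all 6 libraries, against 2588 for Slit3.

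**Figure D1:**
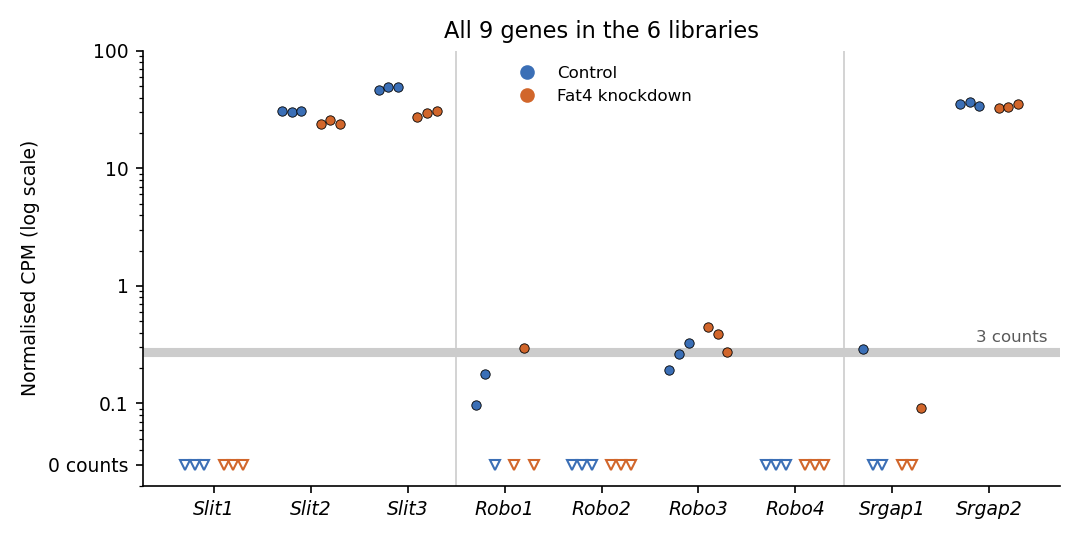
Normalised CPM (log axis) of the 9 genes in each of the 6 libraries, control in blue and knockdown in orange. Open triangles at the bottom, below the log scale, mark libraries with 0 counts, and the grey band is the level of 3 counts. Slit2, Slit3 and Srgap2 lie above 20 CPM in every library, and the other 6 genes lie at or near the band or at 0.

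The promoters of Slit2 and Slit3 are shown because these are the members that were expressed and fell, and the microRNA genes carried in their introns because they share the host transcript. The promoter windows are from RefSeq on GRCm38.p6, 250 bases before to 50 bases after the annotated start, written 5′ to 3′ on the strand of the gene. Capitals mark matches on either strand to a GC box (GGGCGG) or a TATA box (TATAAA), and matches may overlap. The Slit2 window is chr5:47982905-47983204 (+ strand) and the Slit3 window is chr11:35121206-35121505 (+ strand).
Slit2 promoter: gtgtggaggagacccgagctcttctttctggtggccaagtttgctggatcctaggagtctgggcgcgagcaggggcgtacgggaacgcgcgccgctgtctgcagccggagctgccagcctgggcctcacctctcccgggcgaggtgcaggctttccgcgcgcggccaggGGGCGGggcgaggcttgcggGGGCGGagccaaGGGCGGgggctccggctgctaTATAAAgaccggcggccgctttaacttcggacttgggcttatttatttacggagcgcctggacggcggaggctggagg
Slit3 promoter: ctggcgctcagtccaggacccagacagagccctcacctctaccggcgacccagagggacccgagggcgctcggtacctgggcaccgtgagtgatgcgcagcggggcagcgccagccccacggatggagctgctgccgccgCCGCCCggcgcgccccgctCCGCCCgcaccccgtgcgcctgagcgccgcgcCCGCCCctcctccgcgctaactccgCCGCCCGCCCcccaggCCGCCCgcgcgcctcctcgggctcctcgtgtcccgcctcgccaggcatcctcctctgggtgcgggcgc

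The Slit2 window held 3 GC boxes and 1 TATA box, and the Slit3 window held 6 GC boxes, of which a neighbouring pair overlaps, and no TATA box. Among 32851 promoter windows of the same length, 35.7% held at least 1 GC box and 13.6% a TATA box. Neither window held the TEAD motif GGAATG on either strand, which 14.7% of windows held. The absence says only that these letters are not in the window. The RefSeq starts need not be the starts of the GRCm39 gene models that were counted. The starts used in these cells were not tested. The Slit2 window had 30 CpG dinucleotides and the Slit3 window 41, more than 88.3% and 96.5% of all windows, whose median was 7. Promoter entries were matched for 8 of the 9 genes. The window of the silent Robo4 had 2 CpG dinucleotides, that of the near-silent Srgap1 had 37, and that of the expressed Srgap2 had 17, as many as that of Robo3. CpG content did not sort the expressed from the silent genes of this family.

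A long intron-bearing gene can host other transcripts, and both expressed Slit genes host a copy of miR-218, a microRNA known to target Robo1 and Robo2 messages. Mature sequences from RefSeq (GRCm38.p6) are given with the seed, bases 2 to 8, in capitals. The 5p arm is identical in both copies, and the 3p arms differ.
miR-218-5p from Mir218-1 (in Slit2) and Mir218-2 (in Slit3): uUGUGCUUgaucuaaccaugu
miR-218-1-3p from Mir218-1: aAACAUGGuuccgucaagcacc
miR-218-2-3p from Mir218-2: cAUGGUUCugucaagcaccgcg

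Libraries made from messenger RNA do not measure mature microRNAs. The table's Mir218-1 row had 3 counts over the control libraries and 1 over the knockdown libraries, and the Mir218-2 row had 0 in all 6. No statement on mature miR-218 could be made from libraries of this type.

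Fat4 itself was scarce, which bears on how firmly the labels can be checked. It had 10, 22 and 31.5 counts in control and 8.5, 10 and 9 in knockdown libraries. Its log2 fold change was -1.17 ± 0.35 (SE; edgeR, adjusted p = 0.033), but control replicate 1 lay within the knockdown range, and the call was lost in 7 of the 16 other fits that gave a value.

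Slit3 was the ligand gene with the most counts here. The gene (ENSMUSG00000056427) lies on GRCm39 chromosome 11, plus strand, with exons spanning 35012051 to 35599334. It had 476, 562 and 605 counts in control and 308, 300 and 337 in knockdown libraries, in the order of the replicate numbers. After TMM scaling the levels were 46.2, 49.6 and 49.2 CPM in control and 27.5, 29.4 and 30.6 CPM in knockdown libraries. Every knockdown library was below every control library, and the lowest control value exceeded the highest knockdown value by far more than the spread within either group. The group means were 48.4 ± 1.87 and 29.2 ± 1.56 CPM (SD, n = 3), which the edgeR fit put at -0.73 ± 0.07 on the log2 scale (SE, 95% interval -0.88 to -0.58, adjusted p = 2.05e-05). Among the 1129 genes called lower, Slit3 ranked 105 from the most negative log2 fold change. The call held in all 18 other fits run.

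Slit2, the ligand gene most often studied in vessels, fell by less. The gene (ENSMUSG00000031558) lies on chromosome 5, plus strand, with exons spanning 48140480 to 48465075. Its counts were 319, 340 and 377.5 in control and 267.33, 265 and 263 in knockdown libraries. The scaled levels were 31.0, 30.0 and 30.7 CPM in control and 23.9, 26.0 and 23.9 CPM in knockdown libraries. The groups did not overlap, although the gap was smaller than for Slit3. The means were 30.6 ± 0.49 and 24.6 ± 1.21 CPM (SD, n = 3), which the edgeR fit put at -0.32 ± 0.08 on the log2 scale (SE, 95% interval -0.48 to -0.16, adjusted p = 0.00926). With per-library trends in GC content and gene length removed, the log2 fold change of Slit2 was -0.19 and the call was lost (edgeR adjusted p = 0.091), while Slit3 stayed called at -0.59. The Slit2 model is long, at 25433 bases, with 45.5% GC in its longest reference transcript, against 6067 bases and 56.8% GC for Slit3.

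**Figure D2:**
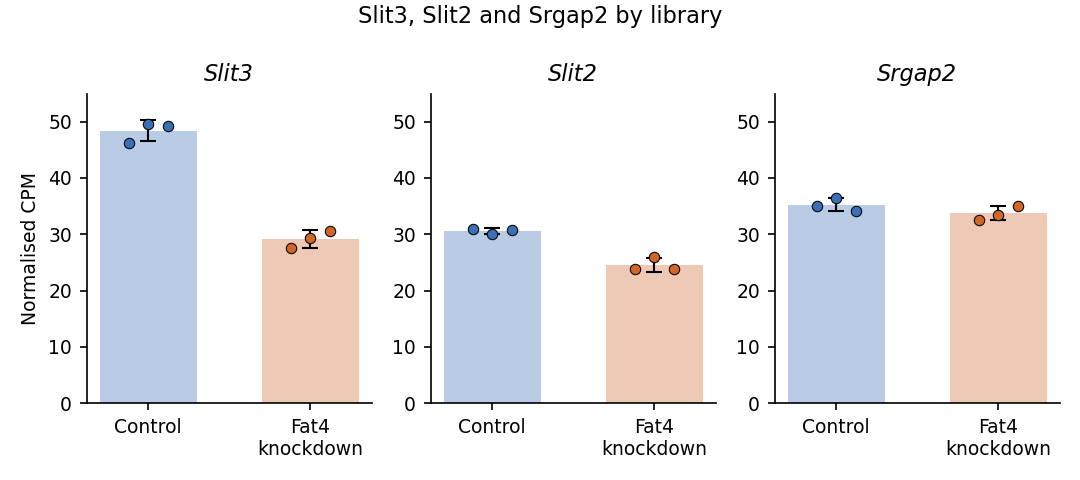
Normalised CPM of Slit3, Slit2 and Srgap2, with 1 point a library, bars at the group mean and error bars of 1 SD (n = 3). The groups are apart for Slit3 (27.5 to 30.6 against 46.2 to 49.6 CPM) and Slit2 (23.9 to 26.0 against 30.0 to 31.0 CPM) and overlap for Srgap2.

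The 2 ligands shifted in their proportions as well. Slit3 supplied 59.9%, 62.3% and 61.6% of all Slit counts in control and 53.5%, 53.1% and 56.2% in knockdown libraries, with no overlap between the groups. By counts, Slit3 was 1.58 ± 0.08 times Slit2 in control and 1.19 ± 0.08 times in knockdown libraries (SD, n = 3). Per base of gene model, Slit3 was 6.63 ± 0.34 times the Slit2 level in control and 4.98 ± 0.34 times in knockdown libraries (SD, n = 3). Most of the ratio per base comes from the model lengths, 25433 bases for Slit2 and 6067 for Slit3, so its size holds for these models only. The shift between the groups follows from the 2 fold changes above and was not tested on its own. Slit1, the third ligand (ENSMUSG00000025020, chromosome 19), is known chiefly from the nervous system and had 0 counts in every library.

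The receptor side was close to empty in both groups. All 4 Robo genes together had 3, 5 and 4 counts in control and 5, 7 and 3 in knockdown libraries, 27 in all, against 4419.83 for the Slit genes. Most of these belonged to Robo3 (ENSMUSG00000032128, chromosome 9, 37326965 to 37344542), a divergent receptor known from commissural axons, with 2, 3 and 4 counts in control and 5, 4 and 3 in knockdown libraries. The Robo3 groups overlapped, at 0.26 ± 0.07 and 0.37 ± 0.09 CPM (SD, n = 3; by a two-sided exact permutation test, p = 0.2).

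Robo1 (ENSMUSG00000022883, chromosome 16), a main Slit receptor of many tissues, had 1, 2 and 0 counts in control and 0, 3 and 0 in knockdown libraries (two-sided exact permutation test of the CPM values p = 1.0, n = 3). Robo2 (ENSMUSG00000052516, chromosome 16) had 0 counts throughout. Robo4 (ENSMUSG00000032125, chromosome 9, 37313193 to 37326411) also had 0 in all 6 libraries. At these counts a difference between the groups was not detectable for any receptor gene, and the smallest p that 3 libraries against 3 allow is 0.1.

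The missing Robo4 went together with other endothelial genes. Of 12 endothelial markers, Robo4 among them, 10 were under 1 CPM in both groups, and Tie1, Vwf, Erg, Cldn5, Emcn and Robo4 were at 0. Their summed level was 10.3 to 10.6 CPM in control and 9.55 to 10.7 CPM in knockdown libraries, most of it Egfl7 and Esam, and neither of these passed the test. Most defining markers of the labelled cell type were thus absent or nearly so at this depth. Of 10 mesothelial markers, 9 had counts and 1, Tcf21, was under 1 CPM in both groups. Their sum was 1701 to 1795 CPM in control and 1516 to 1561 CPM in knockdown libraries, with 3 lower and 0 higher by edgeR (Wt1, Upk3b and Lrrn4). Of 9 fibroblast and mural markers, 8 had counts and Lum was at 0, the sum was 2515 to 2603 CPM against 1935 to 2093 CPM, and 2 were lower (Col1a1, Col3a1) and 1 higher (Acta2). Of 5 leukocyte markers, 4 were under 1 CPM in both groups, with Adgre1 and Itgam at 0, and the sum was 3.18 to 4.08 CPM against 3.53 to 3.90 CPM. The mesothelial and fibroblast sums were lower, as Slit2 and Slit3 were, but a few genes carried them. Upk3b averaged 563 CPM without and 420 CPM with the hairpin, whereas the most abundant mesothelial marker, Upk1b, was at 667 CPM in both. Col1a1, at 1964 and 1513 CPM, carried the fibroblast sum, whereas Acta2 and Dcn had higher means in the knockdown (Dcn uncalled). The part of these cell types in the Slit result was not tested. In bulk libraries fewer cells of a type and less RNA per cell cannot be told apart.

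Of the srGAP adaptor genes, which encode GTPase-activating proteins that bend membranes and bind Robo tails, Srgap2 alone was expressed. Srgap2 (ENSMUSG00000026425, chromosome 1, minus strand, 131212989 to 131455090) had 361, 413 and 420 counts in control and 365, 342 and 386 in knockdown libraries. The scaled levels were 35.1, 36.5 and 34.2 CPM against 32.6, 33.5 and 35.02 CPM, and the groups overlapped. The log2 fold change was -0.06 (SE 0.07, 95% interval -0.21 to 0.09, edgeR quasi-likelihood adjusted p = 0.589), and it took the opposite sign, 0.05, with GC content and length removed. Its log2 fold change was -0.12 with library-size scaling, and -0.04 without control replicate 2 or knockdown replicate 1. Srgap1 (ENSMUSG00000020121, chromosome 10) had 3, 0 and 0 counts in control and 0, 0 and 1 in knockdown libraries (two-sided exact permutation test of the CPM values p = 1.0, n = 3). Srgap3, the remaining gene of this kind, had 4 counts in all.

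The level of each gene per kilobase of gene model gives their order within a library. In control libraries Slit3 stood at 7.97 ± 0.31 CPM per kilobase, Srgap2 at 2.81 ± 0.09 and Slit2 at 1.20 ± 0.02 (SD, n = 3). In knockdown libraries the order was the same, at 4.81 ± 0.26, 2.68 ± 0.10 and 0.97 ± 0.05 CPM per kilobase (SD, n = 3), and these 3 genes differed from each other by more than their spread in both groups. Robo3 followed at 0.04 CPM per kilobase in control and 0.05 in knockdown libraries, and Robo1 and Srgap1 were at 0.01 or below, which their spread did not separate. The sources used here do not say whether reads cover transcripts evenly, and long models such as that of Slit2 would be set too low if they do not. A gene whose transcripts are shorter than its model would also be set too low, even with even coverage. The Slit2 model of 25433 bases has 46 exon blocks, the longest of 4798 bases. That of Slit3 has 6067 bases in 37 blocks, the longest of 601 bases. Which transcripts these cells make was not tested, so the order per kilobase holds for the gene models only.

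Of the 9 genes, 3 passed the filter on low counts. By edgeR 2 of these 3 were called lower (8.44% of all 13372 genes tested were) and 0 higher (8.94% of all genes), with 0 higher also at an unadjusted p under 0.05 and by DESeq2. The knockdown libraries were all below the control libraries for the same 2 genes, as they were for 17.5% of all genes tested. Scaling by library size alone made 67.1% of all calls lower against 48.6% with TMM scaling, and Slit3 and Slit2 stayed lower and called with every scaling used.

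**Figure D3:**
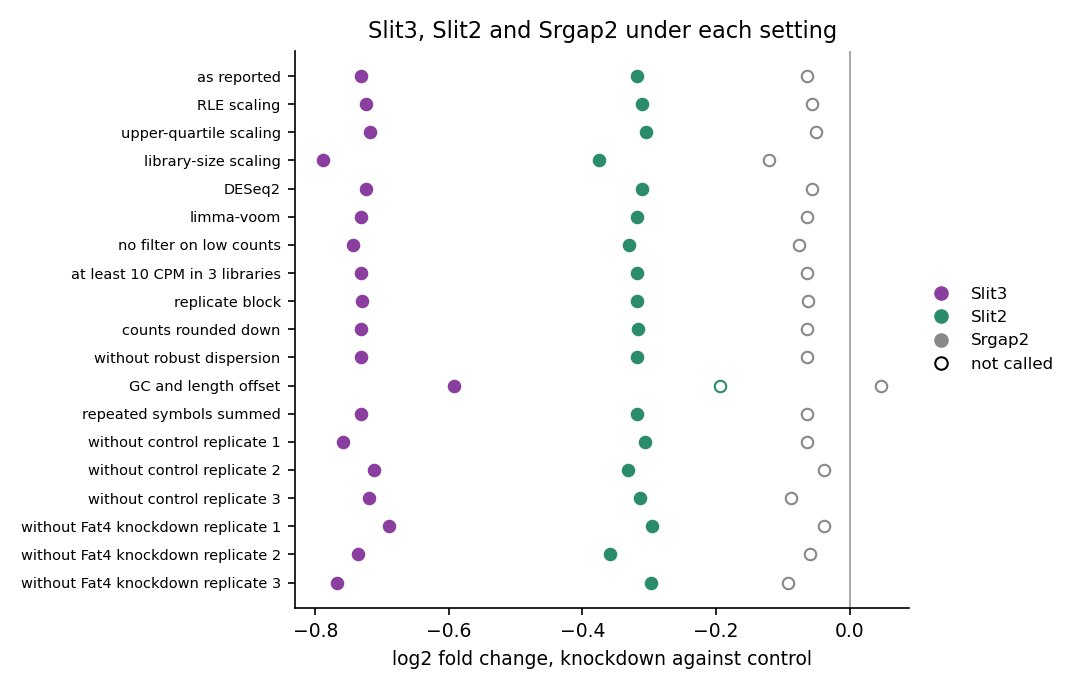
Log2 fold change, knockdown against control, of Slit3, Slit2 and Srgap2 as reported and in 18 other fits. Filled points are called at an adjusted p under 0.05 and open points are not. Slit3 stays between -0.79 and -0.59 and called throughout, Slit2 loses its call with the GC and length offset, and Srgap2 is never called.

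The long introns of both ligand genes hold other rows of the table. Only Lncucc1 in Slit3 and Gm43426 and Gm42537 in Slit2 had enough reads to test. Lncucc1 and Gm43426 were called lower, as 8.44% of all genes tested were. Lncucc1 (ENSMUSG00000086311), a long noncoding RNA gene on the plus strand like its host, lies at chromosome 11, 35240896 to 35241612, inside an intron of Slit3. That intron, between the fourth and the fifth exon block, spans 273015 bases, and Lncucc1 is 114862 bases from the nearer exon. It shares no exon base with Slit3. Its counts were 105, 113 and 143 in control and 34, 59 and 54 in knockdown libraries. The knockdown libraries were all below the control libraries, as they were for 17.5% of all genes tested. The log2 fold change was -1.23 (SE 0.17, 95% interval -1.58 to -0.87, edgeR quasi-likelihood adjusted p = 0.000278), a larger fall than that of its host. Lncucc1 reads were 22.1%, 20.1% and 23.6% of the Slit3 count in control and 11.04%, 19.7% and 16.0% in knockdown libraries (two-sided exact permutation test p = 0.1, n = 3, the smallest possible). Knockdown replicate 2 came within 1 percentage point of a control library, so the gap in this ratio was small.

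The introns of Slit2 held 6 rows on the same strand, 5 of them with counts. Gm43426 and Gm42537, gene models of the class that awaits experimental evidence, had enough reads to test. Gm43426 (chromosome 5, 48215393 to 48217989) had 18, 23 and 28 counts in control and 6, 17 and 10 in knockdown libraries, with a log2 fold change of -0.99 ± 0.32 (SE; edgeR, adjusted p = 0.0443), a call that was lost in 6 of 16 other fits. Gm42537 had 11, 14 and 23 counts against 13, 11 and 12, and was not called (log2 fold change -0.35, SE 0.30, edgeR quasi-likelihood adjusted p = 0.476). Without control replicate 3 the log2 fold change of Gm42537 was -0.059. Summed over the 6 rows, counts were 41, 41 and 57 in control and 23, 33 and 27 in knockdown libraries, or 4.08 ± 0.52 and 2.58 ± 0.60 CPM (SD, n = 3; by a two-sided exact permutation test, p = 0.1). Without Lncucc1, the same-strand intronic rows of Slit3 had 8, 4 and 8 counts against 6, 4 and 4 (two-sided exact permutation test p = 0.4, n = 3). Such rows were also lower in Srgap2, which itself was not called. They had 9.25, 9.58 and 15 counts in control and 7.5, 5 and 2.5 in knockdown libraries. Their sums were 0.99 ± 0.20 and 0.46 ± 0.22 CPM (SD, n = 3; by a two-sided exact permutation test, p = 0.1). Per kilobase of gene model Lncucc1 stood at 23.4 CPM in control and 10.1 in knockdown libraries, against 7.97 and 4.81 for Slit3. Whether such intronic rows hold unspliced host RNA or separate transcripts was not tested.

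**Figure D4:**
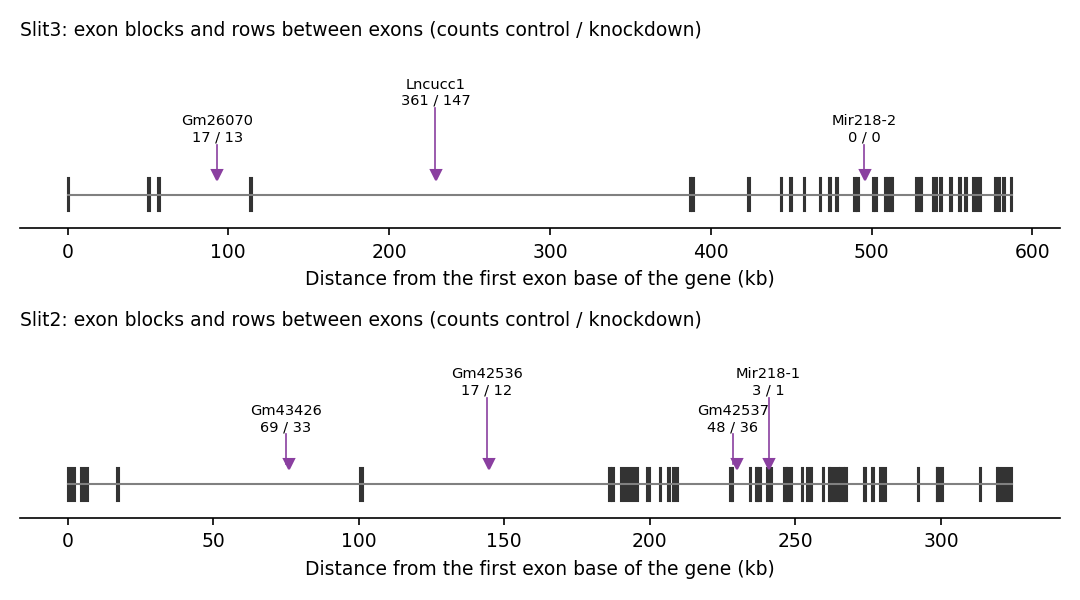
Maps of Slit3 (top) and Slit2 (bottom) by distance in kilobases from the first exon base. Black bars are exon blocks, widened to stay visible, and purple triangles are same-strand rows between exons that have at least 20 counts or are miR-218 genes, each with its counts summed over control and over knockdown libraries. Lncucc1 sits in the longest intron of Slit3 with 361 counts in control and 147 in knockdown libraries.

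Rows on the opposite strand that overlap members had almost no reads. They held 1 count over the Slit2 span, 1 over the Slit3 span and 2 over the Srgap2 span. The sources used here do not state the strand setting of the counting. Of the opposite-strand rows that share exon bases with a member, the 2 at Slit3 had 0 counts and the 2 at Srgap2 had 1 count in all. The row at Robo1, which shares 594 exon bases, had 0 counts. On the same strand, Gm49678 shares 430 exon bases with Robo2 and Gm48804 shares 131 with Srgap1, and both had 0 counts. How reads in shared bases were counted is not stated either.

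Heparan sulfate chains, which bind Slit and Robo together, were represented by 18 genes for carrier proteins and synthesis enzymes, of which 15 were tested. By edgeR 6 were lower (8.44% of all genes tested were) and 0 higher. At an unadjusted p under 0.05, 7 were lower and 0 higher (share over all genes not computed), and DESeq2 also called 0 higher. Their median log2 fold change was -0.18 against -0.01 over all genes tested, of which 17.4% were called in either direction. The glypican gene Gpc3 stood at 39.2 ± 3.81 CPM without and 28.4 ± 2.11 CPM with the hairpin (SD, n = 3), a change of -0.47 on the log2 scale (edgeR, adjusted p = 0.00227). The sulfotransferase gene Hs6st1 (log2 fold change -0.40) and the syndecan gene Sdc2 (-0.34) fell as well, and the calls of all 3 held in all 18 other fits. Ndst1, which encodes an enzyme that starts chain sulfation, also fell (-0.31), a call lost in 6 of 18 other fits. With the GC and length offset the log2 fold change of Ndst1 was -0.16 and that of Hs6st1, still called, was -0.26. The count of lower genes was 3 with GC content and length removed, and also 3 when any library but control replicate 1 was left out. Over all genes tested, lower calls went from 1129 to 679 with that offset and to 502 to 791 in those leave-one-out fits.

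Genes for proteins that carry the Robo signal inside the cell were called higher about as often as all genes tested. Of 21 tested out of 23, edgeR called 2 higher (8.94% of all genes tested were) and 0 lower (8.44% of all genes). At an unadjusted p under 0.05, 3 were higher and 3 lower (share over all genes not computed). DESeq2 called 1 higher and 1 lower, and over all 11038 genes it called 1535, 625 of them lower. The median log2 fold change of the effector list was -0.03. The adaptor gene Nck1 was at 15.9 ± 2.704 and 20.4 ± 1.69 CPM (SD, n = 3), 0.36 higher on the log2 scale (edgeR, adjusted p = 0.0393), and the GTPase gene Cdc42 at 338 ± 6.78 and 379 ± 5.29 CPM (SD, n = 3), 0.16 higher on that scale (edgeR, adjusted p = 0.045). Nck1 lost its call in 7 and Cdc42 in 9 of 18 other fits. Without control replicate 3 the log2 fold change of Nck1 was 0.22, and that of Cdc42 was 0.089 with the GC and length offset and 0.11 with library-size scaling. The count of higher genes was 0 with the GC and length offset, with library-size scaling, and when any library but control replicate 1 or knockdown replicate 3 was left out. Over all genes, calls in either direction were 2324 as reported, 1650 with that offset and 2593 with library-size scaling. They were 1029 to 1226 in those leave-one-out fits.

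Other binding partners and processing factors numbered 14, of which 10 were tested, and 5 were lower (8.44% of all genes tested were) and 1 higher (8.94% of all genes) by edgeR. Their median log2 fold change was -0.19 against -0.01 over all genes. Dag1, which encodes dystroglycan, a matrix receptor that also binds Slit, stood at 186 ± 24.7 CPM without and 144 ± 6.19 CPM with the hairpin (SD, n = 3), a change of -0.37 on the log2 scale (edgeR, adjusted p = 0.0079). Dag1 was no longer called when either control replicate 2 or knockdown replicate 2 was left out. Plxna1, a plexin gene whose product has been described as a receptor for a Slit fragment, fell by 0.31 on the log2 scale, and its call was lost with GC content and length removed (-0.12). Unc5b, whose product binds Robo4, fell by 0.28 on the log2 scale, and its call was lost in 5 of 18 other fits, with a log2 fold change of -0.11 under the GC and length offset. Ndfip2, which encodes an adaptor of ubiquitin ligases that has been linked to Robo turnover, rose by 0.44 on the log2 scale, with 24.2 ± 1.65 CPM without and 32.9 ± 2.61 CPM with the hairpin (SD, n = 3; edgeR, adjusted p = 0.00257), and this call held in all 18 other fits. The count of lower genes was 3 with the GC and length offset and fell to 1 without control replicate 2 or knockdown replicate 2, and to 2 without control replicate 3 or knockdown replicate 1. Over all genes tested, lower calls went from 1129 to 679 with that offset and to 502 to 605 in those leave-one-out fits.

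**Figure D5:**
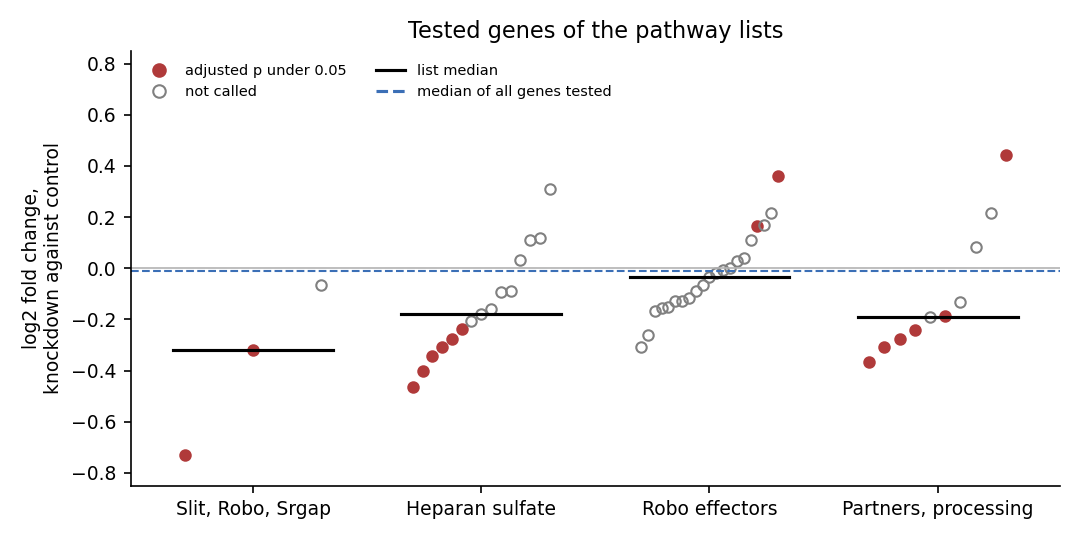
Log2 fold change, knockdown against control, of each tested gene of the family and of the 3 pathway lists, sorted within a list. Filled points are called at an adjusted p under 0.05, black lines are list medians and the dashed line is the median of all genes tested. Of the called genes, 2 of 2 in the family, 6 of 6 in the heparan sulfate list and 5 of 6 in the partner list lie below 0, and 2 of 2 in the effector list lie above 0. Over all genes tested, 48.6% of calls were lower.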

How the data were processed

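Messenger RNA of 6 MCEC libraries, 3 wild-type and 3 with a hairpin against Fat4, was sequenced as tagmented cDNA, per the labels' protocols. Per the submitters' processing notes, the tools included STAR 2.7.11, fastp 0.24.0, SAMtools 1.22.1, FastQC 0.12.1 and MultiQC 1.32, and the build was GRCm39. The notes do not say which program counted reads, with which annotation release, or whether it used strand. The deposited values are estimated counts per gene, of which 29.0% of the nonzero ones are not whole (tolerance 1e-06). The authors' deposited CPM values equal count over library total and were only checked. Gene lengths are those of the deposited table.

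Spike-in rows (92 of 78409) were left out and counts rounded to whole numbers. The filterByExpr function chose the genes to test, TMM scaled the libraries, and edgeR 4.0.16 in R 4.3.3 gave the tests (glmQLFit with its robust option, glmQLFTest), with Benjamini-Hochberg adjustment over all 13372 genes tested and a threshold of 0.05. SE is the log2 fold change divided by the square root of F. Printed CPM are TMM-scaled. Genes too low for the fit were compared by two-sided exact permutation tests. The workflow was tested on simulated data. The alternatives were other scalings, DESeq2 1.42.0, limma-voom (limma 3.58.1), other filters, a replicate block, rounding down, summed repeated symbols, each library left out, and smooth per-library trends in GC content (GRCm38 transcripts, available for 95.6% of tested genes) and length, fitted with mgcv 1.9.3 and used as offsets. A fit without the robust option was added after seeing the data. No 2 libraries of a group agreed within sampling noise.

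The members and lists were chosen with earlier results of these data known. All 9 members are named, together with up to 4 called genes of each pathway list by lowest adjusted p and rows that overlap a member.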

Additional observations from a re-analysis of the deposited data

How the results depend on the processing

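The number of members called lower was 2 in 17 of 18 other fits and 1 with the GC and length offset, where Slit2 had a log2 fold change of -0.19 (edgeR adjusted p = 0.091) and Srgap2, uncalled throughout, turned positive (0.048). The cause was not tested. Leaving out each library kept 2 members lower and 0 higher. With library-size scaling the effector list had 0 genes higher and 1 lower. DESeq2 gave that list 1 higher and 1 lower, the fits without a low-count filter and without the robust option 1 higher, limma-voom, the filter at 10 CPM in 3 libraries and the replicate block 1 lower, and the GC and length offset 0 higher. The offset left 3 lower genes in the heparan sulfate list, and 3 lower and 2 higher in the partner list, which also had 3 lower with upper-quartile scaling and with DESeq2. Without a library the ranges were 0 to 3 higher and 0 to 1 lower for effectors, 3 to 7 lower for heparan sulfate genes, and 1 to 5 lower for partners. Calls over all genes tested moved as well, from 2324 as reported to 1650 with the offset and 1535 with DESeq2. Without a library they ranged from 1029 to 3077.

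The deviations of samples sharing a replicate number correlated weakly (r = -0.20, -0.16 and 0.14 for numbers 1, 2 and 3). With 3 libraries a group, these correlations cannot decide whether the numbers pair samples. With the replicate block 2001 genes were called against 2324 without it, and Slit3 (-0.73) and Slit2 (-0.32) stayed lower. Gm43426 lost its call with the block (edgeR adjusted p = 0.065). Only in replicate 3 was the correlation with the same number higher than with the others. Depth limits the receptor genes, of which Robo2 and Robo4 had 0 counts and Robo1 and Robo3 at most 5 in any library.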
